A study of Homo sapiens with 12 samples.

Results

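The DMSO cultures of a human podocyte line are described here by the level and rank of their genes. They were chosen by label as the replicates that received DMSO and no drug, and make up 3 of the 12 samples of the series. Podocytes are epithelial cells that wrap the capillaries of the kidney glomerulus. The study set DMSO beside 3 calcineurin inhibitors given at 100 nM for 24 h, in 4 groups of 3 samples. The cells came from 1 conditionally immortalized human line that carries a temperature-sensitive SV40 T gene. They were grown at 33 °C and shifted for 7 to 10 days to 37 °C, a temperature at which the T antigen is inactive, so that they would differentiate. DMSO, the solvent of the drugs, was then present for 24 h before RNA was taken. Being 1 immortalized line, the cultures are a model of podocytes and not podocytes taken from tissue. The labels number the replicates 1 to 3 without saying whether they were separate cultures, so the spread between them may be technical. No inhibitor group enters any value below, and no test between groups was made.

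In the glomerulus, neighbouring podocytes interlock by foot processes. The gap between these is bridged by the slit diaphragm, a junction built from nephrin and its relatives and tied to the actin skeleton. Podocytes rest on a basement membrane whose laminin and collagen IV chains they help to make, and a small set of transcription factors headed by WT1 holds their identity in the adult kidney. In culture, podocyte lines are known for keeping the actin part of this outfit more readily than the slit diaphragm part.

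The 3 libraries held 32893331 counts in DMSO 1, 31313877 in DMSO 2 and 29922496 in DMSO 3. Levels within a gene are given as CPM, the count of a gene per 1000000 counts of its library, and ratios between genes are given only per length. A rank by CPM depends on transcript length as well as on the number of molecules. The per-length level is the count per kilobase of annotated exon, scaled to the same total as CPM. A gene was called expressed at 1 CPM or more in all 3 libraries and silent below 0.1 CPM in all 3, and anything between is called low. Of 62261 genes, 14576 were expressed, which is 23.4% of them. Among the 19784 nuclear protein-coding genes 12703 were expressed, or 64.2%, and 3433, or 17.4%, were silent. A mean of 10 CPM or more was reached by 9850 of them, or 49.8%, and a mean of 100 CPM or more by 1978, or 10.00%. The 64.2% expressed is the share set beside each list of genes below. The lists were chosen with earlier results of these data known, so a share above 64.2% may reflect that choice. In bulk RNA, fewer cells of a type and less RNA per cell cannot be told apart, so a low level may come from few cells or from little RNA in each.

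The label was only partly borne out by its 4 marker genes, since the actin-linked markers ACTN4 and SYNPO were expressed while WT1 was low and NPHS1 was near silent. ACTN4 encodes the actin crosslinker alpha-actinin-4 (ENSG00000130402, GRCh38 chr19:38647649-38731583, plus strand) and measured 1489.8, 1410.1 and 1458 CPM in DMSO 1, 2 and 3. It ranked 51 of all genes by mean CPM and 103 by per-length level. SYNPO encodes synaptopodin, an actin-binding protein of foot processes (ENSG00000171992, chr5:150601080-150659220, plus strand), and measured 52.3, 43.5 and 45.4 CPM, with rank 4527. Both genes differed little among the libraries, by 1.06 and 1.20 times from the lowest to the highest. WT1, the zinc-finger factor of podocyte identity (ENSG00000184937, chr11:32387775-32435630, minus strand), gave 24, 36 and 22 counts, or 0.730, 1.15 and 0.735 CPM. Only DMSO 2 passed 1 CPM, and the rank of WT1 was 15605. NPHS1, the gene of nephrin (ENSG00000161270, chr19:35825964-35869287, minus strand), gave 3, 7 and 3 counts, or 0.0912, 0.224 and 0.10 CPM. Its 13 counts in all bound its pooled level between 0.0735 and 0.236 CPM, an exact Poisson 95% interval that covers counting error only. Per length, ACTN4 stood 47.9 to 54.6 times above SYNPO over the 3 libraries, and SYNPO 103 to 305 times above NPHS1. With its identity factor and its slit protein this low, the group is called the DMSO cultures below.

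**Figure D1:**
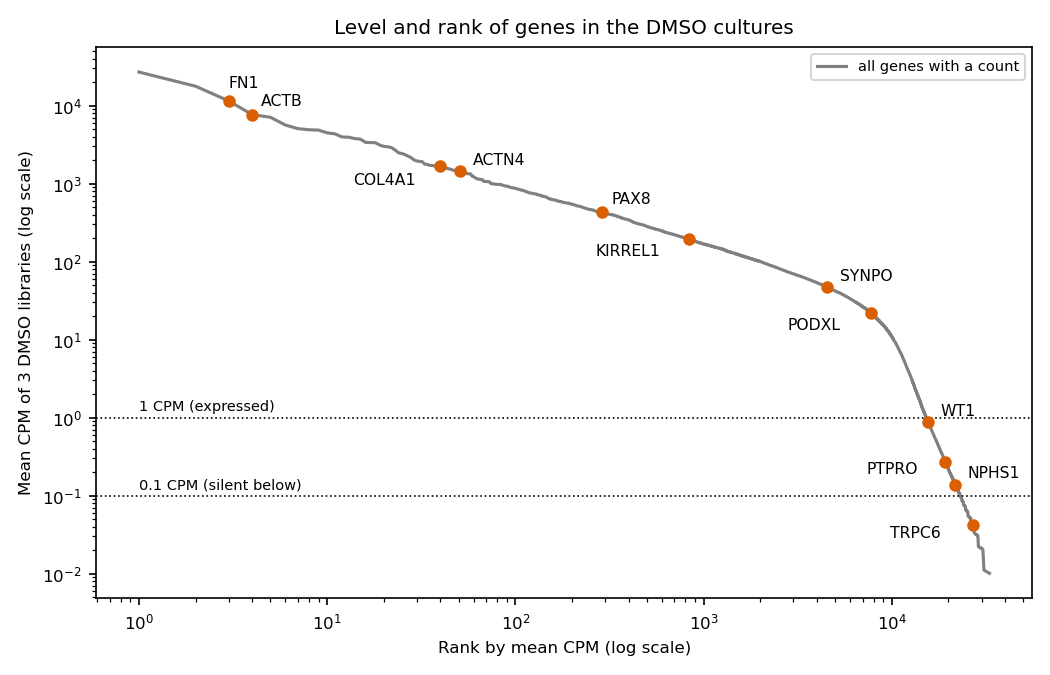
Mean CPM of every gene with a count in the DMSO cultures (y axis, log scale) against its rank (x axis, log scale), with 12 genes marked and dotted lines at 1 and 0.1 CPM. ACTN4 lies at rank 51, SYNPO at 4527, WT1 at 15605 just under the 1 CPM line and NPHS1 at 21762 near the 0.1 CPM line.

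Over 5 lists of podocyte genes, 97 of 123 measured members were expressed, 25 were low and 1 was silent. That is 78.9% expressed against 64.2% of all protein-coding genes, with a median of 35.9 CPM against 9.81 CPM. Per length, the medians were 16.9 and 6.78. The share expressed ran from 11 of 18 transcription factors to 26 of 27 actin and foot process genes. Over all lists of this report, the podocyte lists included, 762 of 901 members were expressed, or 84.6%, with a median of 57.0 CPM. The podocyte lists thus lay above all protein-coding genes but below the listed genes as a whole. The podocyte lists hold many genes that other cell types also use, VIM and ITGB1 among them.

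Of the 22 slit diaphragm genes reported, 17 were expressed (median 29.6 CPM), among them adaptors and some membrane proteins, while nephrin and 4 others were not. The adaptor CD2AP, which ties the slit to actin, measured 114, 107 and 87.3 CPM, and the tight junction scaffold TJP1 183, 169 and 164 CPM. KIRREL1, the gene of the nephrin relative Neph1, measured 242, 170.4 and 169.7 CPM and so was higher in DMSO 1 than in the other libraries. The giant cadherin FAT1 was also highest in DMSO 1, at 520.4, 347 and 348 CPM. PODXL, the sialomucin that keeps foot processes apart, was expressed at 22.9, 19.3 and 23.3 CPM, and the phospholipase gene PLCE1 at 33.9, 37.1 and 41.3 CPM. The low members were NPHS1, CRB2, PTPRO and KIRREL2. CRB2, a polarity protein of the slit, gave 0.790, 0.543 and 0.602 CPM. PTPRO, a receptor phosphatase of the podocyte surface, gave 0.395, 0.224 and 0.201 CPM from 26 counts in all. KIRREL2, a further relative of nephrin, had 0, 6 and 2 counts. TRPC6, the calcium channel mutated in familial glomerular disease, was the silent member, with 2, 2 and 0 counts. Its 4 counts bound the pooled level between 0.0116 and 0.109 CPM (exact Poisson, 95%).

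Nearly the whole actin machinery of the foot process was expressed, 26 of 27 genes with a median of 154 CPM. MYH9, the heavy chain of nonmuscle myosin IIA, measured 3829, 3249.6 and 3078 CPM and ranked 16 of all genes by CPM and 55 per length. The membrane-actin linker EZR measured 663, 727 and 659 CPM, and RHOA, the contractility GTPase, 662, 674 and 572 CPM. RAC1 and CDC42, the GTPases of protrusion, had means of 362 ± 31.0 and 201 ± 20.0 CPM (SD, n = 3). Genes in which mutations cause podocyte disease were present beside them: ANLN at 304 ± 27.2 CPM, MYO1E at 168 ± 12.1, INF2 at 157 ± 4.66, and ARHGDIA at 332 ± 24.9. The expressed members of lowest CPM were ARHGAP24, a RAC1-inactivating protein, at 3.44 ± 0.356 CPM and AVIL at 2.23 ± 0.756 CPM. KANK4 was the only member not expressed, with 2, 7 and 4 counts.

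**Figure D2:**
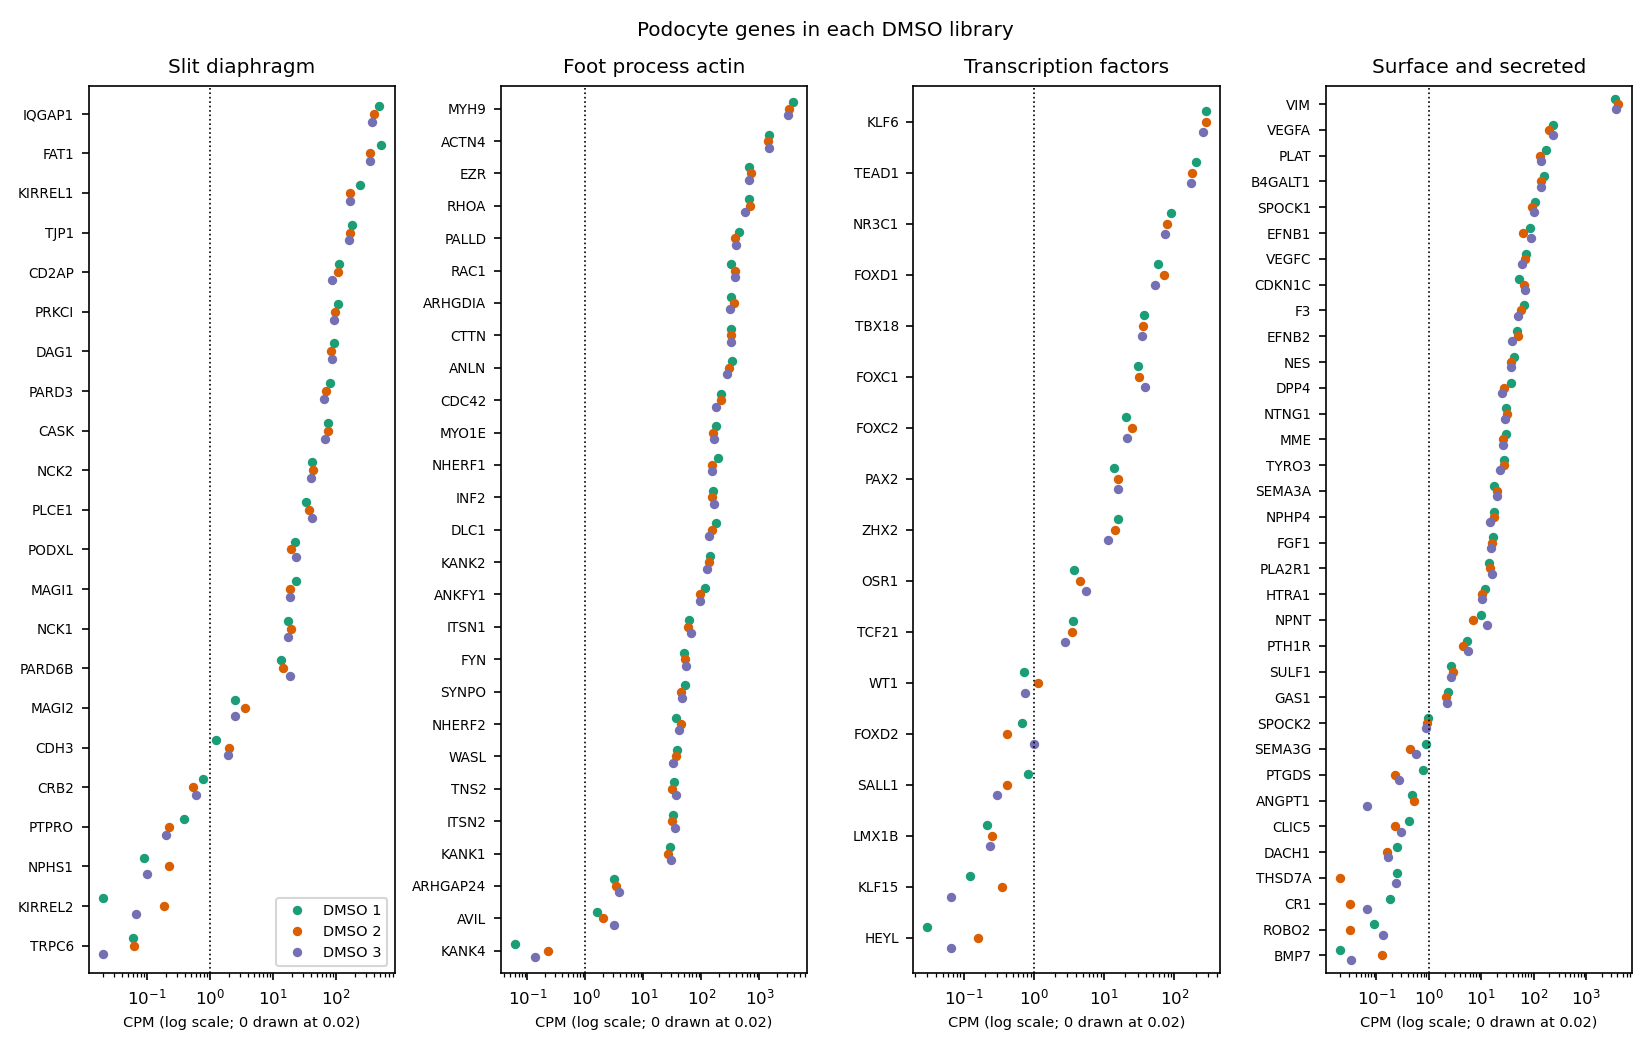
CPM of the named members of 4 podocyte lists in each DMSO library (x axis, log scale, 0 drawn at 0.02; points are the 3 libraries; dotted line at 1 CPM). The slit diaphragm panel falls from IQGAP1 at 422 CPM to TRPC6 at 0.0416 CPM, while in the actin panel KANK4 alone lies below the line.

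Of the 18 podocyte transcription factors, 11 were expressed (median 9.17 CPM) and 7 were low. The share, 61.1%, was near the 64.2% of all protein-coding genes, whose median was 9.81 CPM. LMX1B, the factor mutated in nail-patella syndrome, gave 7, 8 and 7 counts, or 0.213, 0.255 and 0.234 CPM. TCF21, an early podocyte and stromal factor, was expressed at 3.59, 3.48 and 2.81 CPM. Forkhead factors of the forming kidney were expressed, FOXC1 at 30.0, 30.9 and 38.1 CPM, FOXC2 at 20.6, 24.9 and 21.4 CPM and FOXD1 at 57.5, 71.0 and 52.7 CPM. PAX2, which kidney epithelium expresses during development and mature podocytes switch off, measured 13.6, 15.6 and 15.7 CPM. The broadly expressed KLF6 (271 ± 12.9 CPM), TEAD1 (185 ± 17.1 CPM) and NR3C1, the glucocorticoid receptor (79.7 ± 7.75 CPM), were expressed too. KLF15, HEYL, SALL1 and FOXD2 were low along with WT1 and LMX1B.

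In the list of surface and secreted podocyte products, which also holds the intracellular markers VIM and DACH1, 24 of 34 genes were expressed. The median was 16.3 CPM. VEGFA, the growth factor by which podocytes support glomerular endothelium, measured 232, 200.2 and 237 CPM. PLA2R1, the main autoantigen of membranous nephropathy, measured 14.4, 14.8 and 16.3 CPM, and MME (neprilysin) 29.4, 26.2 and 26.4 CPM. These 3 genes differed by 1.19 times or less between libraries. NPNT, an integrin ligand of the glomerular basement membrane, was less even, at 9.79, 7.09 and 12.7 CPM. By contrast CLIC5 (0.317 ± 0.102 CPM), DACH1 (0.190 ± 0.0462 CPM), PTGDS (0.417 ± 0.298 CPM) and THSD7A (8, 0 and 7 counts), which are commonly used as podocyte markers or antigens, were low. ROBO2, CR1 and BMP7 stayed at 9 counts or fewer over the 3 libraries.

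The basement membrane genes were expressed in 19 of 22 cases (median 105 CPM), with the collagen IV chains of early and general basement membrane far above those of the mature glomerulus. COL4A1 measured 1922, 1489.9 and 1579.5 CPM and COL4A2 measured 2238, 1786 and 1824 CPM, highest in DMSO 1 in both cases. COL4A3 gave 12, 6 and 11 counts and COL4A4 gave 34, 26 and 19. COL4A5, the third chain of the mature network, was expressed at 13.8, 8.72 and 11.6 CPM. Per length, COL4A1 exceeded COL4A3 by 2660.0 to 4814 times and COL4A5 by 110.0 to 138 times, and COL4A2 exceeded COL4A4 by 1123 to 1500.0 times. With the longest transcript as the length, the ranges became 5258 to 9517 times for COL4A1 over COL4A3 and 3318 to 4431 times for COL4A2 over COL4A4. Laminin genes showed both the early beta-1 chain and the mature beta-2 chain. LAMB1 measured 457, 413 and 403 CPM and LAMB2 226, 216 and 255 CPM, a per-length ratio of 1.33 to 1.71. LAMA5, the alpha chain of the mature membrane, was 16.6 to 29.2 times above LAMA1, the early chain, per length. AGRN, the heparan sulfate proteoglycan of this membrane, measured 1605, 1389 and 1427 CPM. The receptor pair that binds podocytes to laminin, ITGA3 and ITGB1, stood at 979 ± 69.5 and 1933 ± 255 CPM.

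**Figure D3:**
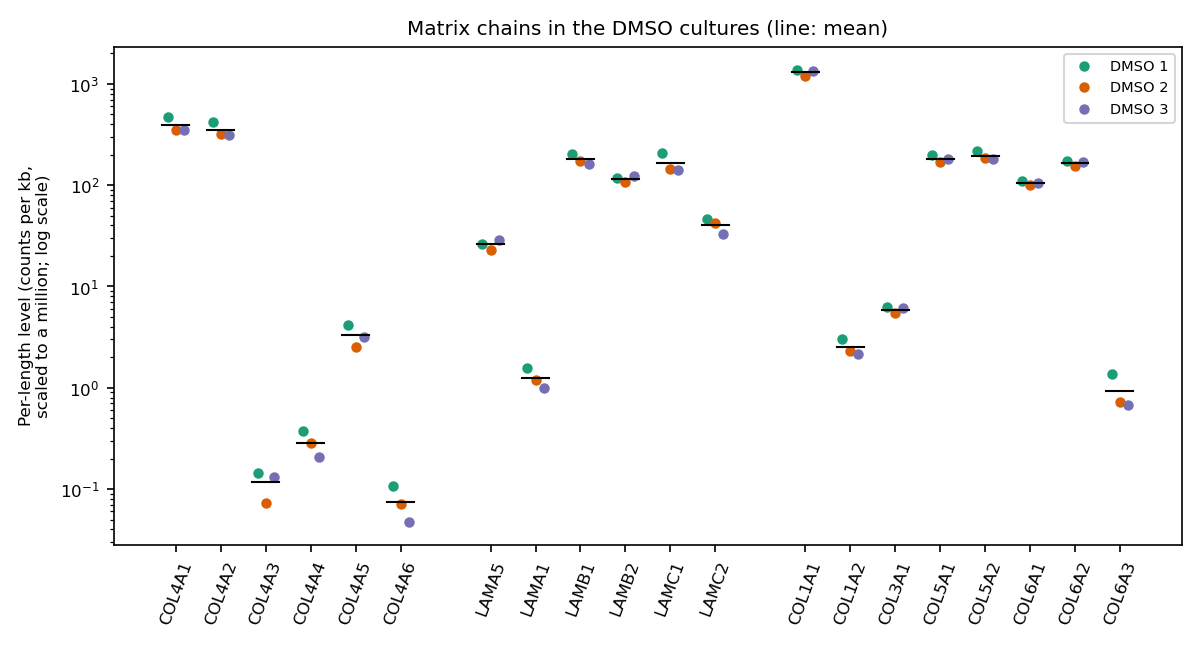
Per-length level (y axis, counts per kb scaled like CPM, log scale) of collagen IV, laminin and interstitial collagen chains in the 3 DMSO libraries, with the mean as a line. COL4A1 and COL4A2 lie at 390.4 and 349, while COL4A3 and COL4A4 lie at 0.116 and 0.287; COL1A1 at 1306 stands over COL1A2 at 2.49.

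Mitochondrial, matrix and actin genes made up most of the top of the transcriptome. By mean CPM the first 10 genes were MT-CO1, MT-RNR2, FN1, ACTB, MT-ND4, EEF1A1, MT-ND5, MT-ATP6, MT-CYB and MT-CO3, and they held 9.60 ± 1.34% of all counts (SD, n = 3). With mitochondrial genes left out of the ranking and the total, the first 10 held 5.58 ± 0.339%. MT-CO1, a subunit of cytochrome oxidase, measured 22297, 25198 and 33409 CPM. FN1, the gene of fibronectin, measured 14978, 10019.8 and 9478 CPM. These genes ran in opposite orders, with MT-CO1 highest in DMSO 3 and FN1 highest in DMSO 1. The places to rank 25 held, among others, ACTG1, SPARC, GAPDH, VIM, COL1A1, MYH9, MT-ND2, MT-CO2, MT-ND1, THBS1, ANXA2, FLNA, MALAT1 and PKM. Per length, 13 of the first 15 genes were mitochondrial, and the others were ACTB at rank 14 and TMSB10, a small actin-monomer binding protein, at rank 15. The first 100 genes by CPM held 24.2 ± 1.31% of counts and the first 1000 held 53.2 ± 0.606%. Only 75 genes reached 1000 CPM, with 21.9% of the counts, and 1936 genes lay between 100 and 1000 CPM with 44.3%.

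By class, mitochondrially encoded genes took 7.10, 8.12 and 10.8% of the counts in DMSO 1, 2 and 3. All 77 cytosolic ribosomal protein genes were expressed, with 3.29, 3.65 and 3.17% of counts. Other protein-coding genes held 85.4 ± 1.99%, long noncoding genes 1.72 ± 0.141% and pseudogenes 0.363 ± 0.0215%. The mitochondrial share was highest in DMSO 3 and the share of other protein-coding genes lowest there, at 83.3%. Nuclear copies of mitochondrial genes and the near-identical members of the actin, tubulin and ribosomal protein families share sequence, so the split of reads among such copies is uncertain.

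Genes of contractile and cytoskeletal actin formed the list with the highest median of all 45, at 705 CPM and 453 per length, and all 31 were expressed. ACTB measured 7287, 8076 and 7668 CPM and ACTG1, the other cytoplasmic actin, 4478, 4577 and 3995 CPM. FLNA, the actin crosslinker filamin A, was highest in DMSO 1, at 3264, 2445 and 2383 CPM. TAGLN (transgelin), known from smooth muscle and stressed mesenchymal cells, measured 1683, 1585 and 1846 CPM. The muscle actins were far lower per length: ACTA2 stood at 90.6 and ACTG2 at 7.74, against 7509.7 for ACTB. ACTA2 was among the steadiest genes of the list, at 77.5, 79.4 and 77.9 CPM.

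Promoter sequences are printed for a pair of these actin genes because a CArG box, the site recognised by serum response factor in actin genes, was found in their promoters. The box was searched as the exact pattern CCWWWWWWGG, W being A or T, which covers both strands. Near matches were not counted. The search ran from 250 bases before to 50 bases after the first listed start, in RefSeq sequence of GRCh38.p14. The box was present in 5 of the 27 promoters held for this list (18.5%), against 1.24% of 15293 protein-coding promoters. Promoters of ACTB and TAGLN were not among those held. By status, it was in 1.10% of expressed, 1.35% of low and 1.70% of silent protein-coding promoters. The 5 genes were ACTG1, ACTG2, CNN2, FLNA and TPM4, and ACTG2 held 2 boxes. The motif, the 10 lists searched and the promoters shown were chosen after the levels and matches were seen. A match is a description of letters, not of a bound site. In both promoters below, 5′ to 3′ along the gene's strand, the box in capitals begins 94 bases before the start. ACTG1 is at chr17:81512750-81513049 on the minus strand and FLNA at chrX:154374585-154374884 on the minus strand.
ACTG1: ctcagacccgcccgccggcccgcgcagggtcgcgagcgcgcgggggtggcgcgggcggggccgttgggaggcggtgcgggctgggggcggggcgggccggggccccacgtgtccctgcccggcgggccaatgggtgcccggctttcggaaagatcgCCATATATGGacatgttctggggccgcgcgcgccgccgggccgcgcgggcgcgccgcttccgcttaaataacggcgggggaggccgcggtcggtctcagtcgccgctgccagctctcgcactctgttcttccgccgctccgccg
FLNA: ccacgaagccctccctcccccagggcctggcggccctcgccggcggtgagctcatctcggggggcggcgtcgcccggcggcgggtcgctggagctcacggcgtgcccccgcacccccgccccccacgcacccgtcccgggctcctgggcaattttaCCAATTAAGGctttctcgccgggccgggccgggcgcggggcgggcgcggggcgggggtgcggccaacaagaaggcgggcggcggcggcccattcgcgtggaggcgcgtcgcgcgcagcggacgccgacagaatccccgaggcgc

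Promoter CpG content is given as a description, with no test, for genes that were expressed, low or silent. The median promoter held 26.0 CpG in 10308 expressed protein-coding genes, 10.0 in 2511 low genes and 5.00 in 2474 silent genes. The observed number over that predicted from base content was 0.84, 0.48 and 0.27. The letters TATAAA, a motif also chosen after the levels were seen and searched on both strands, were in 5.47% of expressed, 14.4% of low and 21.9% of silent promoters. Promoters of the expressed members of the 5 podocyte lists held a median of 29 CpG (75 genes) and those of the low members 19 (20 genes). SYNPO and NPHS1, the expressed and the near-silent marker, are printed with each CpG in capitals. SYNPO held 12 CpG, under the median of expressed genes, and NPHS1 held 4. Status and CpG number did not go together at every marker, since the low genes WT1 and LMX1B held 21 and 42, and the expressed ACTN4 held 47. The intervals are chr5:150600826-150601125 on the plus strand for SYNPO and chr19:35852455-35852754 on the minus strand for NPHS1, with the same source and build. Each shows the first listed start only, and which start these cultures use was not tested.
SYNPO: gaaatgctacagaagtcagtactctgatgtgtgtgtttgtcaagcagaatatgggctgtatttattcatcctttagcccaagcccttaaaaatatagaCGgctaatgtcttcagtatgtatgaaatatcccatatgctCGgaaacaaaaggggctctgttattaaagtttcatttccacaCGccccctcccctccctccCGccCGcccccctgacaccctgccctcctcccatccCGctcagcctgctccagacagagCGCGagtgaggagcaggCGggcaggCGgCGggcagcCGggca
NPHS1: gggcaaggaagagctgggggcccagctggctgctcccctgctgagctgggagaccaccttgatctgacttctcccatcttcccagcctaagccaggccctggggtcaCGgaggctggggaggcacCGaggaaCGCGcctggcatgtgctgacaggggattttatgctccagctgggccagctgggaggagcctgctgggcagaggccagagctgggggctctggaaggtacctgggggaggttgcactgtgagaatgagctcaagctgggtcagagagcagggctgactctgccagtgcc

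Nearly all matrix and mesenchymal genes listed were expressed. All 28 interstitial matrix genes were expressed (median 387 CPM), as were 24 of 25 fibroblast and mesenchymal genes (median 70.1 CPM). SPARC, a collagen-binding secreted protein, measured 3842, 3589.7 and 4476 CPM and ranked 12. THBS1 (thrombospondin 1), an activator of latent TGF-beta, fell within a wide range, at 3841, 2886 and 2293 CPM with DMSO 1 highest. The chains of collagen I were unequal: COL1A1 measured 3756, 3421 and 4002 CPM and COL1A2 measured 9.42, 7.44 and 7.25 CPM. Per length this was 453 to 627 times, although the protein usually combines both chains. COL1A1 also stood 219 to 223 times above COL3A1, and COL6A1 79.4 to 152 times above COL6A3. The low end of the matrix list further held POSTN at 5.27 ± 1.81 CPM and BGN at 3.70 ± 0.676 CPM, and of the mesenchymal list DCN at 3.29 ± 1.06, PRRX1 at 1.04 ± 0.0416 and TWIST2, which was low. The cadherin of mesenchymal cells, CDH2, exceeded the epithelial CDH1 by 71.9 to 148 times per length. In all, 28 gene pairs were compared per length, and they were chosen after the values were seen.

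Signal and adhesion genes were expressed in all but 1 case over 3 lists. All 24 TGF-beta and BMP pathway genes were expressed (median 65.8 CPM). GREM1, a secreted BMP antagonist, measured 1920.4, 1424 and 1115 CPM and was highest in DMSO 1. INHBA, the activin A subunit, was even at 961, 949 and 1031 CPM. All 16 genes of the YAP and TEAD list were expressed (median 171 CPM), among them the secreted targets CCN1 at 1051, 1025 and 1103 CPM and CCN2 at 613, 464 and 392 CPM. Of the integrin and focal adhesion genes 27 of 28 were expressed, CAV1 being among the steadiest at 424, 418 and 425 CPM. ITGA8, a mesangial integrin, was the low member, with 6, 1 and 7 counts.

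Besides vimentin, the cultures expressed simple-epithelial keratins and several genes of parietal epithelial cells, the cells that line Bowman's capsule. VIM measured 3539.7, 4109 and 3710.0 CPM. KRT19 measured 1021, 1069 and 1074 CPM, KRT8 859.7, 939 and 932 CPM, and KRT7 785, 878 and 808 CPM. Per length, VIM was 5.31 to 5.84 times above KRT8. PAX8, a kidney lineage factor that parietal cells retain, measured 436, 366 and 482 CPM, and CLDN1, their tight junction claudin, 445, 395 and 408 CPM. In all, 14 of 16 parietal genes were expressed, with a median of 217 CPM. PROM1, a progenitor marker of these cells, was silent, with 3, 2 and 2 counts, and ALDH1A2 was low. Podocyte and parietal genes were thus both present, and whether they came from the same cells cannot be told from bulk RNA.

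The lists for endothelium, tubule and immune cells were mostly not expressed, and the mesangial list was mixed. Among glomerular endothelial genes 4 of 14 were expressed, with summed levels of 38.0, 28.9 and 25.6 CPM, of which EHD3, a gene not restricted to endothelium, gave 18.6 ± 3.13. At a threshold of 0.5 CPM the count was 9 of 14. PECAM1, another endothelial marker, was expressed and was highest in DMSO 1 (values in the last paragraph). CDH5, the endothelial cadherin, gave 0.392 ± 0.0892 CPM, and EMCN had 8, 0 and 1 counts. In the proximal tubule list 4 of 14 genes were expressed (143, 133 and 166 CPM summed), mostly from GGT1 at 122 ± 16 CPM, and the transporter SLC22A6 had no count. At 0.5 CPM the count was 7. In the distal list 5 of 14 were expressed, and no member had a mean above 5.26 CPM. UMOD and SLC12A1 had no count. With 3 counts as the limit, 0 counts in 1 library allow up to 0.0912, 0.0958 or 0.10 CPM, for DMSO 1, 2 or 3. For a gene without a count in any library, the pooled limit is lower. Of the immune genes 3 of 12 were expressed, and CD68, a lysosomal protein that other cells also carry, made up 71.3 ± 4.16 of the 85.1, 76.4 and 73.7 CPM summed. CD3E had no count. Mesangial and pericyte genes were mixed, with 10 of 16 expressed: MCAM at 804 ± 63.7 and THY1 at 449 ± 41.3 CPM, but PDGFRA, DES and ITGA8 below 1 CPM.

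**Figure D4:**
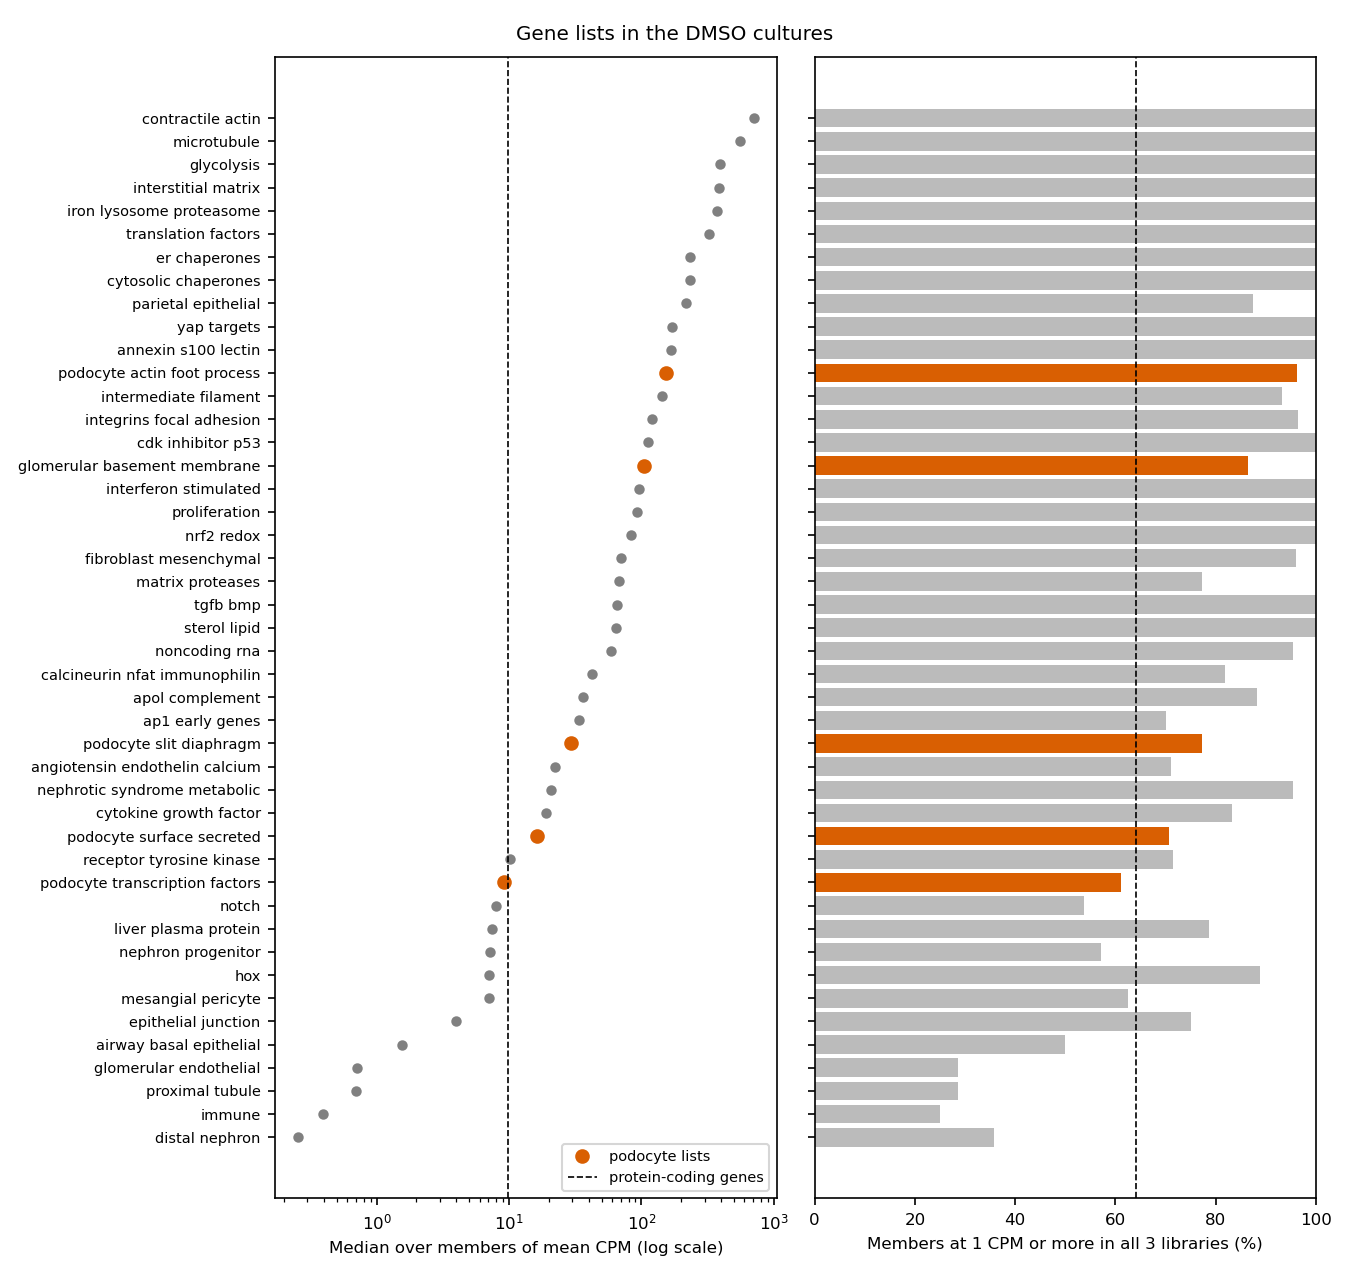
Median CPM over members (left, log scale) and share of members expressed (right, %) for each gene list in the DMSO cultures, podocyte lists in orange; dashed lines give all protein-coding genes, at 9.81 CPM and 64.2%. The contractile actin list leads at 705 CPM, and the endothelial, proximal tubule, immune and distal nephron lists lie below 1 CPM.

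Genes of the kidney's developmental origin were in part expressed. Of 36 HOX genes, the homeobox factors that record position along the body axis, 32 were expressed. HOXA10 measured 38.4, 48.8 and 41.6 CPM and HOXB9 40.6, 45.3 and 42.5 CPM. All 4 paralogs of group 9, all 3 of group 10 and all 3 of group 11 were expressed, and 2 of the 4 genes of group 13. The low HOX genes were HOXC13, HOXC5, HOXA6 and HOXD13, the last with 1, 4 and 2 counts. In the nephron progenitor list 8 of 14 genes were expressed. GDNF, the factor that draws out the ureteric bud, measured 62.6, 60.1 and 60.1 CPM and LHX1 9.36, 11.3 and 12.1 CPM. CITED1 and EYA1, which mark progenitors, had 4 and 5 counts in all.

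The cultures carried RNA of cell division genes together with that of cell cycle inhibitors. All 23 proliferation genes were expressed (median 93.4 CPM). PCNA, the DNA polymerase clamp, measured 435, 472 and 432 CPM, TOP2A 364, 358 and 365 CPM, and MKI67, the Ki-67 antigen, 220.0, 188 and 176 CPM. These genes differed by 1.25 times or less among libraries. All 18 genes of the cell cycle inhibitor and p53 list were also expressed (median 112 CPM). CDKN1A, the p53 target p21, measured 1917, 1404 and 1592 CPM and ranked 41, and MDM2, the p53 ligase and target, 789, 602 and 847 CPM. CDKN2A, the gene of p16 and p14ARF, measured 192, 211 and 202 CPM. Whether the same cells held both sets cannot be told from bulk RNA, and activity of the T antigen was not tested.

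The targets of the inhibitors used elsewhere in the study were present in the DMSO cultures. In the list of calcineurin, NFAT and immunophilin genes 18 of 22 were expressed (median 42.0 CPM). PPIA, the gene of cyclophilin A, the receptor of the cyclosporins, measured 1088, 1236 and 1187 CPM and ranked 62. FKBP1A, the gene of FKBP12, the receptor of tacrolimus, measured 306, 326 and 293 CPM. PPP3CA and PPP3CB, which are among the genes of calcineurin catalytic subunits (named after their values were seen), measured 60.3 ± 0.533 and 36.6 ± 1.59 CPM. RCAN1, a calcineurin regulator and NFAT target, was steady at 167, 158 and 161 CPM. NFATC1 gave 1.03, 0.575 and 0.501 CPM and NFATC4 0.638, 1.88 and 1.30 CPM, so neither reached 1 CPM in every library. Both were named as lowest members of the list and do not stand for the other NFAT factors, which are not given here. Low calls in this list lay near the threshold. At 0.5 CPM 21 of the 22 genes were expressed, and without DMSO 1 the count was 20.

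Interferon-stimulated genes were expressed without exception, 37 of 37 with a median of 95.3 CPM. In DMSO 3, 30 of the 37 had their lowest level, or 81.1%, against 41.2% of expressed protein-coding genes. A high share lowest in DMSO 3 was not particular to interferon genes. The share was also above 41.2% in other lists, such as proliferation (69.6%) and translation factors (66.7%). In others it was below, such as the parietal list (7.14%). HLA-B measured 1648, 1484 and 1523 CPM and B2M, the light chain of MHC class I, 1544, 1413 and 1486 CPM, both lowest in DMSO 2. IFI6 measured 853, 859.5 and 734 CPM, with per-length rank 24. The antiviral OAS2 measured 32.7, 24.6 and 16.3 CPM and OASL 9.45, 8.46 and 4.21 CPM. DMSO 3 lay at a median of −0.41 on the log2 scale against the mean of the other libraries over this list, against −0.04 over all protein-coding genes. In the proliferation and translation factor lists the difference was smaller, with medians of −0.20 and −0.19. Of the 35 members at a mean of 10 CPM or more, 9 differed by 1.5 times or more between libraries, where 3.79% of all expressed genes at that level did. Among cytokines 25 of 30 were expressed, with IL6 at 226, 207 and 183 CPM and CXCL8 at 185, 121 and 104 CPM, both highest in DMSO 1.

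Glycolysis, translation and protein folding genes were all expressed. The 20 glycolysis genes had a median of 394 CPM, led by GAPDH at 3743, 4135 and 3948 CPM and PKM at 2498, 2481 and 2306 CPM. LDHA, the lactate dehydrogenase of glycolytic cells, measured 1272, 1249 and 1173 CPM. The 24 translation factors had a median of 323 CPM, and EEF1A1, the elongation factor, was lowest in DMSO 3, at 6078, 6073 and 4765 CPM. Endoplasmic reticulum chaperones numbered 16 of 16, with the collagen-modifying P4HB at 2212, 2013 and 2225 CPM and CALR (calreticulin) at 2079.8, 2003 and 1949.9 CPM. The heat shock gene HSPA8 was uneven, at 974, 671 and 513 CPM.

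Outside the mitochondrial ribosomal RNAs, MALAT1 led the noncoding genes by CPM. MALAT1, a nuclear RNA, measured 2125, 2389 and 2925 CPM and NEAT1, the scaffold of paraspeckles, 1092, 1313 and 1599 CPM, both highest in DMSO 3. NORAD, a cytoplasmic RNA, ran the other way, at 673, 539.6 and 485 CPM. SNHG29, TUG1, FGD5-AS1, OIP5-AS1, PAX8-AS1, GAS5 and DUXAP8 followed, from 284 ± 15.4 down to 80.7 ± 2.48 CPM. PAX8-AS1 overlaps PAX8, and without knowing whether counting used the strand, reads of an antisense pair cannot be told apart.

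The spread between the 3 libraries was more than counting noise. Over 17429 genes the biological coefficient of variation, the spread between replicates beyond counting noise, was 0.122, and it ran from 0.108 to 0.145 when 1 library was left out. Pearson's r across these genes, on log2 CPM, was 0.992 to 0.995 for the 3 pairs of libraries, and genes are not independent replicates. No library was a copy of another, since counts differed by a chi-square of 16.2 to 34.0 per degree of freedom, largest between DMSO 1 and DMSO 3. Of 10213 expressed genes at a mean of 10 CPM or more, 387, or 3.79%, had a highest library 1.5 times the lowest or more, and 25 reached 2 times. The median ratio was 1.18. DMSO 3 was the highest library in 208 of the 387, DMSO 1 in 152 and DMSO 2 in 27. Among the protein-coding genes of these, the numbers were closer, at 147 for DMSO 3, 143 for DMSO 1 and 24 for DMSO 2.

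Genes that varied most were of several kinds. TGFB2-OT1, a noncoding gene that overlaps the 3′ end of TGFB2, measured 17.7, 38.4 and 57.7 CPM, and ZNF526, a zinc-finger gene, 7.36, 18.2 and 23.3 CPM. The leukocyte actin bundler LCP1 was highest in DMSO 1, at 47.6, 22.7 and 19.9 CPM, as were the antibody chain gene IGHG1 at 82.4, 31.9 and 31.1 CPM and IGLC2 at 29.9, 13.3 and 15 CPM. HAS2, a hyaluronan synthase, measured 45.6, 31.9 and 20.4 CPM, THBS2 18.2, 8.30 and 8.25 CPM, and ANGPTL4 21.6, 9.45 and 13.7 CPM. For TBC1D3, NPIPA9, FAM156B and POU5F1, which have near-identical copies or pseudogenes, the split of reads is uncertain.

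Transcript length moved with the difference of DMSO 1. Over 9850 protein-coding genes, the log2 ratio of DMSO 1 to the mean of the other libraries had a Spearman rho of 0.32 with the length of the longest transcript, and −0.05 with GC content. With the genes cut by length into 5 equal groups, its median went from −0.09 in the shortest to 0.09 in the longest. For DMSO 3 the rho was −0.04 with length and 0.15 with GC content. FN1, FLNA, FAT1 and COL4A1, all long transcripts and all highest in DMSO 1, are among the genes this touches, and the part of length in their order was not tested.

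**Figure D5:**
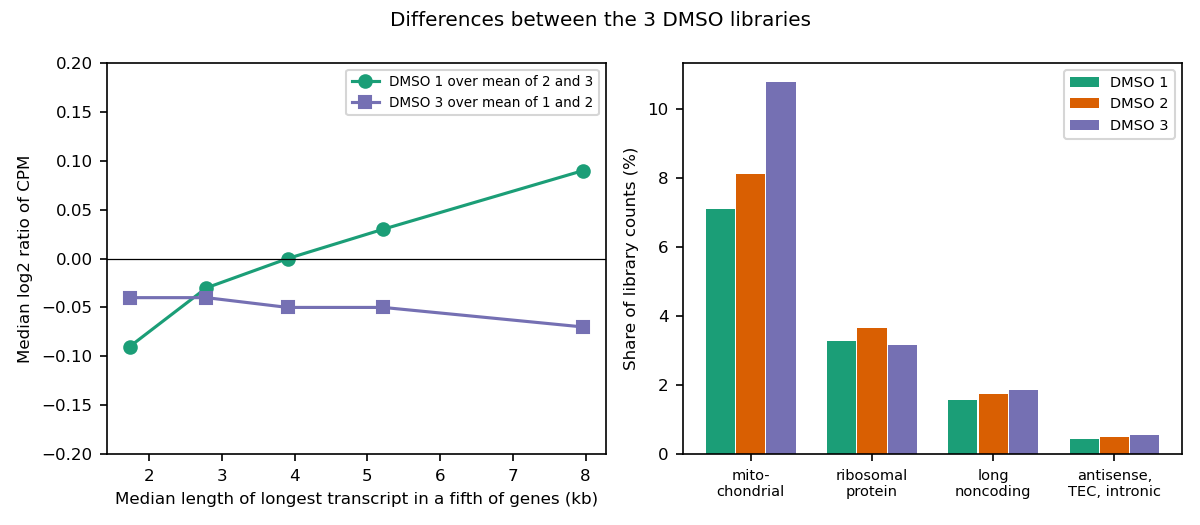
Left, median log2 ratio of CPM in 5 equal groups of protein-coding genes by transcript length (x axis, kb), for DMSO 1 and DMSO 3 each against the mean of the other libraries; right, share of library counts (%) in 4 gene classes. The DMSO 1 line rises from −0.09 to 0.09, and the mitochondrial share is 7.10, 8.12 and 10.8% in DMSO 1, 2 and 3.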

How the data were processed

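The 3 DMSO libraries were made from poly(A) RNA with ERCC controls added and UMIs in the reads, per the labels' protocols. No source used here tells if UMIs were merged, so counting error alone is covered by the intervals and floors. The authors deposited whole-number estimated counts per gene, made with Salmon on GRCh38 per the submitters' processing notes, with versions not given; that the estimates had been rounded was read from the values. Totals differed, so the values are not normalized. Symbols were found for 41987 of 62262 Ensembl identifiers, and 57845 had an entry in GENCODE 29, which gave positions, classes and exon lengths; 97.5% of expressed genes had a length. Whether counting used strand is not stated.

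CPM is the count over the library total. Per-length levels used the union of exons. edgeR 4.0.16 in R 4.3.3 gave TMM factors and the coefficient of variation, an estimate checked on simulated data; other steps used Python 3.11.15 with pandas 2.3.3. No test between groups was made, since 1 group was described. Alternatives were TMM and RLE scaling, a threshold of 0.5 CPM, 10 counts in every library, filterByExpr, totals without mitochondrial genes, longest-transcript length and leaving out each library.

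The members and the 45 gene lists (904 genes, 901 measured) were chosen with earlier results of these data known. Besides these, 1 gene of the slit diaphragm list is left out of every count, and a few other listed genes are counted but not reported here by name. Genes were named by rule: the 4 markers, any podocyte list member, the first 25 by CPM, 15 per length and 10 noncoding, up to 6 highest and 4 lowest of each other list, and the 15 most uneven genes at 10 CPM or more. The 28 gene pairs, PPP3CA, PPP3CB, CNN2 and TPM4 were added after the values were seen.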

Additional observations from a re-analysis of the deposited data

How the results depend on the processing

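The counts of expressed genes, over all genes, the podocyte lists and all lists, stayed within 1.5 times of their value under every alternative run. By list, 2 counts moved by more at 0.5 CPM, the endothelial from 4 to 9 and the proximal tubule from 4 to 7. The share of the first 10 genes went from 9.60 to 5.58% without mitochondrial genes. Expressed genes numbered 14576 by library totals and also by TMM or RLE factors, 16241 at 0.5 CPM, 17543 at 10 counts in every library, 17429 by filterByExpr, and 14732 to 14894 with a library left out. Expressed podocyte genes numbered 97 to 101. The mitochondrial share ran from 7.61% without DMSO 3 to 9.46% without DMSO 1. Of the 15 genes first per length, 14 remained with the longest transcript as length. Among the 28 gene pairs, 3 changed direction. The log2 ratio of COL4A1 to COL4A2 went from 0.16 to −0.26 and that of COL5A1 to COL5A2 from −0.09 to 0.23 with the longest transcript, and that of FOXC1 to FOXC2 from 0.12 to −0.01 without DMSO 3 (−0.01 to 0.25 over the libraries left out). With that length, 18 further ratios moved by more than their spread between libraries. No paired analysis was possible because 1 group was described and no test was made. Genes under about 30 counts in a library are limited by counting error.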

Other observations

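Receptors and disease genes outside the programs above were measured as follows. Of 28 receptor tyrosine kinases 20 were expressed, with AXL at 473, 404 and 384 CPM, EPHA2 at 222, 197 and 230.0, MET, the hepatocyte growth factor receptor, at 191, 157 and 148, and EGFR at 111, 102 and 84.1. HGF, the ligand of MET, had 10, 6 and 0 counts. APOL1, whose variants raise the risk of kidney disease, measured 178, 172 and 208 CPM, and complement C3 564, 371 and 439 CPM, highest in DMSO 1. In the angiotensin, endothelin and calcium list 22 of 31 genes were expressed. PIEZO1, a mechanosensitive channel, measured 248, 233 and 235 CPM, while PIEZO2 and TRPC5 were low and AGTR2 had no count. Among Notch genes 7 of 13 were expressed, with NOTCH2 at 161, 108 and 112 CPM, DLL1 and DLL4 low and HEY2 without a count. Immediate early genes were uneven within their list, FOSL2 at 351 ± 39.7 CPM and FOS at 0.483 ± 0.171 CPM.

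Transcripts of other tissues were also counted. Of the liver plasma protein genes 11 of 14 were expressed, with ALB at 144, 131 and 169 CPM, SERPINA1 at 59.6, 59.9 and 61.3 and HP at 52.5, 44.3 and 57.6, while AHSG, APOA1 and APOA2 did not reach 1 CPM in every library. The list summed to 328, 303 and 378 CPM. Of the airway and basal epithelial genes 7 of 14 were expressed, summing to 56.4, 32.4 and 32.7 CPM, with DMSO 1 highest. SFTPC, a surfactant gene of lung, had 51, 3 and 6 counts, KRT5 measured 12.9, 5.72 and 5.55 CPM and KRT14 5.96, 1.79 and 1.74 CPM. IGHG1, LCP1 and PECAM1 (4.16, 1.18 and 1.5 CPM) had the same order, with DMSO 1 highest. The source of these counts was not tested. The POU5F1 symbol carried 359, 431 and 658 counts, which its near-identical pseudogenes make uncertain.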
